A study of Canis lupus familiaris with 8 samples.

Results

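The JmjC histone demethylases of the KDM3, KDM4, KDM5, KDM6 and KDM7 subfamilies were followed in cultured dog cells by RNA sequencing. The genes were chosen by symbol. All 10 listed symbols, KDM3A, KDM4A, KDM4B, KDM4C, KDM5A, KDM5B, KDM5C, KDM6A, KDM6B and KDM7A, had a row of their own among the 30424 rows of the deposited table, and all 10 passed the filter on low values. Levels are given as TPM, a share of all transcripts scaled to a common total, which corrects for transcript length and allows genes to be set side by side.

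Histone lysine demethylases with a JmjC domain remove methyl groups by an oxidation that needs iron, oxygen and 2-oxoglutarate. They act on lysines of histone H3. KDM3 and KDM4 enzymes act on lysine 9 (KDM4 also on lysine 36), KDM5 enzymes on lysine 4, a mark of active promoters, and KDM6 enzymes on lysine 27, the mark laid down by Polycomb. KDM7A acts on both lysine 9 and lysine 27.

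Of the 8 libraries, 3 (titled shA) came from JuB2 cells labelled as a knockdown of KDM2B by a short hairpin RNA (shRNA), 3 (titled scr1) from JuB2 cells expressing a scramble shRNA, 1 from untreated JuB2 cells and 1 from untreated cells described as normal endothelial cells, with the source name CnAOEC and the title EC. JuB2 is 1 tumour cell line, from hemangiosarcoma of the dog, a cancer that forms vessel-like spaces, and the titles give 1 hairpin per condition. The study's question is the role of KDM2B in cell viability and in the response to DNA damage. Whether the replicates were separate cultures is not stated in the labels, and the p-values therefore rest on a spread that may be technical.

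KDM2B, the targeted gene and a lysine demethylase of another JmjC subfamily, stood at 20.88, 19.69 and 18.25 TPM in the shA-labelled libraries and at 14.01, 15.01 and 12.89 TPM in scramble, with 17.65 TPM in untreated JuB2, above the scramble range. It was higher where it is labelled as knocked down (limma adjusted p = 0.0101, log2(TPM + 1) difference 0.46 ± 0.11, SE). Directions below are those of the shA-labelled libraries and not of a measured loss of the KDM2B transcript, and whether labels were exchanged between the groups was not tested. The 13 mitochondrially encoded genes held between 11.3% and 12.6% of the TPM in the shA-labelled libraries and between 17.3% and 18.9% in scramble. Their share was 19.4% in untreated JuB2 and 11.6% in EC. Markers of endothelial cells were mixed. Of 14 with a row, 3 exceeded 1 TPM in untreated JuB2 and 5 did so in EC. EGFL7 lay between 6.7 and 17.33 TPM and KDR between 2.61 and 6.53 TPM in the 7 JuB2 libraries. In EC these genes stood at 1.93 and 1.24 TPM. ERG stood at 21.93, EMCN at 3.11 and TEK at 2.38 TPM in EC. ERG was uneven in JuB2, at 9.22, 7.42 and 0 TPM in the shA-labelled libraries, 0 in scramble and 1.28 TPM in untreated JuB2. SOX18 had 6.01, 5.11 and 8.01 TPM in the shA-labelled libraries and 2.51, 1.01 and 2.68 TPM in scramble. It had 0.27 TPM in untreated JuB2 and 0.26 TPM in EC. CDH5, TIE1, EMCN and SOX17 were listed at 0 in all 7 JuB2 libraries, and PECAM1, VWF, TIE1, ESAM and SOX17 in the library labelled EC. The summed level of all 14 was between 32.25 and 39.03 TPM in the shA-labelled libraries, between 12.48 and 17.48 TPM in scramble, 18.08 TPM in untreated JuB2 and 32.33 TPM in EC. Only 3 of the 14 could be tested, and all 3 passed as higher in the shA-labelled libraries, against 33.3% of all genes tested. The 12 fibroblast and smooth muscle markers summed to between 866.8 and 940.37 TPM in the shA-labelled libraries, between 1656.36 and 1717.1 TPM in scramble, 1195.16 TPM in untreated JuB2 and 33564.4 TPM in EC. In EC 11 of them exceeded 1 TPM, with TAGLN at 6546.17, ACTA2 at 5318.54 and DCN at 3527.19 TPM, and DES was listed at 0. Whether the EC library came from endothelial cells, as labelled, was not tested. Of the 9 fibroblast and smooth muscle markers tested between the shRNA groups, 5 passed as lower and 1 as higher, against 17.6% and 33.3% of all genes tested. COL1A2 had between 211.38 and 232.08 TPM in the shA-labelled libraries and between 635.8 and 657.12 TPM in scramble. COL3A1 went the other way, with between 358.44 and 387.89 TPM and between 337.65 and 347.69 TPM. The part of these differences in the results below was not tested, and in bulk RNA fewer cells of a type and less RNA per cell cannot be told apart.

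In the shA-labelled libraries, KDM6A, KDM5A, KDM5B and KDM3A were higher than in scramble, and KDM7A and KDM5C were lower. The 3 KDM4 genes and KDM6B did not pass the test. Thus 6 of the 10 genes passed at a limma adjusted p under 0.05, 4 higher and 2 lower, where 50.9% of all 11485 genes tested passed, 33.3% higher and 17.6% lower. The count is near that background. For the same 6 genes no shA-labelled library overlapped scramble, as was so for 59.3% of all genes tested. Of all genes tested, the median one differed by 0.16 on the log2 scale, being higher in the shA-labelled libraries, against a median of 0.04 for the 10 demethylase genes. Relative to the median gene, KDM6A was 0.77 higher, KDM5A 0.53, KDM5B 0.37 and KDM3A 0.25, while KDM7A was at -1.07 and KDM5C at -0.46. With trimmed-mean scaling, which brings the median gene to -0.00311, 3 were higher and 4 lower, against 22.9% and 25.3% of all genes. With quantile normalization 3 were higher and 2 lower, against 24.8% and 23.4% of all genes.

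**Figure D1:**
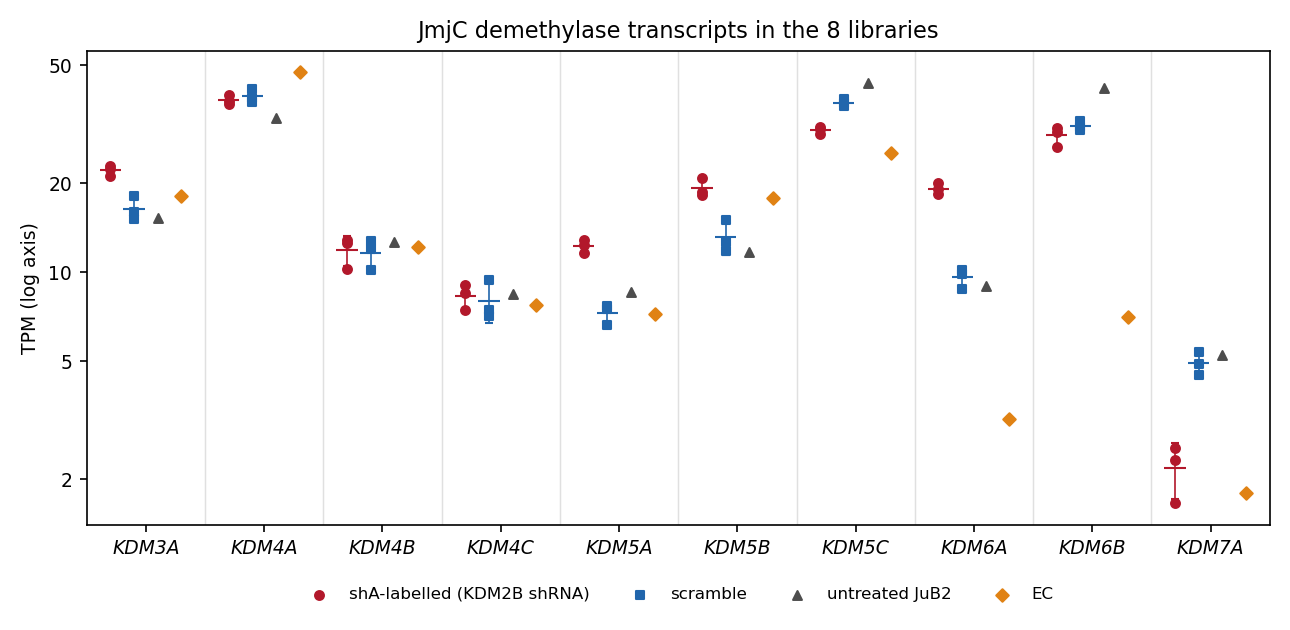
TPM on a log axis of each of the 10 genes in every library, with bars for the mean ± SD of the 3 shA-labelled libraries (circles) and the 3 scramble libraries (squares), beside untreated JuB2 (triangle) and EC (diamond). The shA-labelled libraries lie above scramble for KDM3A, KDM5A, KDM5B and KDM6A and below it for KDM5C and KDM7A, and EC lies lowest for KDM5C, KDM6A and KDM6B.

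Of the H3K27 demethylases of the KDM6 subfamily, KDM6A passed the test and KDM6B did not. KDM6A, also called UTX, is a subunit of the complexes that hold the H3K4 methyltransferases KMT2C and KMT2D. KDM6A (ENSCAFG00000014589) stood at 19.11, 20.1 and 18.32 TPM in the shA-labelled libraries and at 8.79, 10.2 and 9.87 TPM in scramble. The groups were far apart, and untreated JuB2, at 9 TPM, lay within the scramble range. Mean levels were 19.2 ± 0.892 and 9.62 ± 0.737 TPM (SD, n = 3 each), a log2 rise of 0.93 ± 0.11 (SE; limma, adjusted p = 0.000459), with 8.96% of tested genes showing a larger rise. Over the alternatives its adjusted p lay between 0.000362 and 0.00315. KDM6B, or JMJD3, is induced in mouse macrophages by inflammatory signals. KDM6B (ENSCAFG00000016817) stood at 30.7, 29.88 and 26.4 TPM in the shA-labelled libraries and at 32.56, 31.06 and 30.18 TPM in scramble, so that the groups overlapped. The difference was -0.11 ± 0.09 in log2 units (limma, adjusted p = 0.369, error as SE). With trimmed-mean scaling it passed as lower, at -0.28 ± 0.08 (SE; adjusted p by limma = 0.0268, from 0.0268 to 0.739 over the alternatives).

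The same KDM6A and KDM6B values were also expressed as shares, which is not a second result. KDM6A made up 38.4%, 40.2% and 41.0% of the summed TPM of KDM6A and KDM6B in the shA-labelled libraries, and 21.3%, 24.7% and 24.6% in scramble. It made up 17.7% in untreated JuB2 and 31.0% in EC. The mean share was 39.8 ± 1.34% in the shA-labelled libraries and 23.5 ± 1.98% in scramble (SD, n = 3 each), and the groups did not overlap (two-sided exact permutation test, p = 0.1, the smallest that 3 against 3 libraries allow, and 0.15 adjusted over the 12 sums and shares compared). A share within a library is the same under any factor applied to the whole library, and with quantile normalization the difference was 15.7 percentage points, against 16.3 on TPM as deposited. The summed TPM of KDM6A and KDM6B was 48.2 ± 2.99 in the shA-labelled libraries and 40.9 ± 0.726 in scramble (SD, n = 3 each), with 50.97 TPM in untreated JuB2, above all 6. The difference of this sum was 3.81% with trimmed-mean scaling and 17.8% on TPM as deposited.

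**Figure D2:**
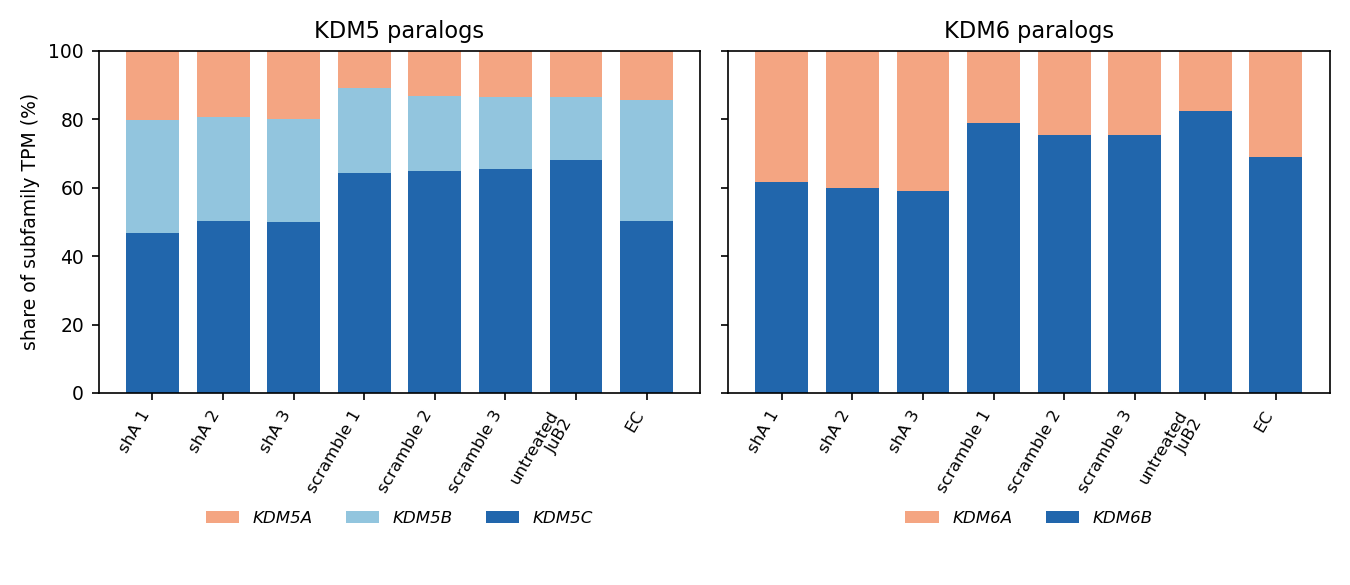
Stacked bars of the share, in percent, that each paralog takes of the summed TPM of its subfamily in each of the 8 libraries, with the KDM5 genes on the left and the KDM6 genes on the right. KDM5A, KDM5B and KDM6A take larger shares in the 3 shA-labelled libraries than in scramble or untreated JuB2, and KDM5C and KDM6B smaller ones.

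Among the H3K4 demethylases, KDM5A and KDM5B rose and KDM5C fell. KDM5A, first described as a partner of the retinoblastoma protein, had 12.85, 11.66 and 12.35 TPM in the shA-labelled libraries and 6.62, 7.67 and 7.51 TPM in scramble. The untreated JuB2 library held 8.6 TPM, above the scramble range and below every shA-labelled library. The rise of KDM5A (ENSCAFG00000015781) was 0.69 ± 0.12 in log2 units (limma, adjusted p = 0.00293, error as SE). KDM5B, a demethylase expressed in many human tumours, had 20.86, 18.31 and 18.66 TPM in the shA-labelled libraries and 14.97, 12.63 and 11.78 TPM in scramble. No library overlapped between the groups, and untreated JuB2, at 11.7 TPM, lay just under the scramble range. KDM5B (ENSCAFG00000010452) was 0.53 ± 0.12 higher in log2 terms (SE; adjusted p by limma = 0.00971). KDM5C, an X-linked gene in human and mouse, is the most abundant of the KDM5 genes here. It had 29.43, 30.39 and 31.08 TPM in the shA-labelled libraries and 38.6, 37.26 and 36.44 TPM in scramble, with 43.51 TPM in untreated JuB2. KDM5C (ENSCAFG00000016133) fell by 0.30 on the log2 scale, with an SE of 0.08 (limma adjusted p = 0.0154). Without scramble library 1 it no longer passed, at -0.27 (limma adjusted p = 0.0503, the highest over the alternatives, of which the lowest was 0.001995).

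Expressed as shares, KDM5C made up 46.6%, 50.3% and 50.1% of the KDM5 transcripts in the shA-labelled libraries, and 64.1%, 64.7% and 65.4% in scramble. It made up 68.2% in untreated JuB2 and 50.3% in EC. The difference between the group means was -15.7 percentage points (two-sided exact permutation test, p = 0.1, the smallest possible, and 0.15 adjusted over the 12 sums and shares). KDM5A averaged 19.9 ± 0.518% of the KDM5 transcripts in the shA-labelled libraries and 12.6 ± 1.39% in scramble, and KDM5B averaged 31.1 ± 1.65% and 22.7 ± 1.96% (SD, n = 3 each, in that order of groups). The summed KDM5 level was 61.9 ± 1.40 TPM in the shA-labelled libraries and 57.8 ± 2.24 TPM in scramble (SD, n = 3 each). This is a difference of 6.98% in TPM as deposited, and it turned to -5.67% with trimmed-mean scaling, to -2.45% with quantile normalization and to -0.428% without the mitochondrially encoded genes.

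KDM7A had the lowest level of the 10 genes and the largest difference among those that were lower. KDM7A (ENSCAFG00000003990) stood at 2.55, 1.66 and 2.32 TPM in the shA-labelled libraries and at 5.39, 4.89 and 4.51 TPM in scramble. Every shA-labelled library lay below every scramble library and below untreated JuB2, at 5.26 TPM. Mean levels were 2.18 ± 0.462 and 4.93 ± 0.441 TPM (SD, n = 3 each), a fall by 0.91 on the log2 scale with an SE of 0.19 (limma adjusted p = 0.00611). On this scale the fold of so low a gene is understated, and the difference was -1.16 with a pseudocount of 0.1 and -0.47 with one of 5, and it passed with both. A smaller, that is more negative, difference was found for 4.89% of tested genes.

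Of the H3K9 demethylases among the 10 genes, other than KDM7A, KDM3A passed the test. KDM3A, or JMJD1A, is induced by hypoxia in human cells. KDM3A (ENSCAFG00000007522) had 22.27, 22.78 and 21.18 TPM in the shA-labelled libraries and 15.96, 15.17 and 18.11 TPM in scramble. The groups did not overlap, and untreated JuB2 held 15.27 TPM, within scramble. The rise was 0.41 ± 0.11 in log2 units (limma, adjusted p = 0.0141, error as SE). It no longer passed with trimmed-mean scaling, at 0.24 ± 0.11 (SE; adjusted p by limma = 0.0964), or with quantile normalization, at 0.28 ± 0.10 (SE; adjusted p by limma = 0.0594). Over the alternatives its adjusted p lay between 0.0109 and 0.0964. The rise was not particular to KDM3A. KDM3B and JMJD1C, outside the 10 genes and named after their values were seen, passed as higher by 0.44 and 0.54 (limma, adjusted p = 0.0147 and 0.0153). Neither passed with trimmed-mean scaling (limma, adjusted p = 0.0815 and 0.0571). HR, also named after its value was seen, did not pass (limma, adjusted p = 0.120).

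The KDM4 genes encode demethylases of H3K9 and H3K36. KDM4A (ENSCAFG00000004903), the most abundant of the 10 genes in both shRNA groups, had 39.71, 36.97 and 37.81 TPM in the shA-labelled libraries and 41.68, 38.88 and 37.73 TPM in scramble. The groups overlapped, and untreated JuB2 lay lower, at 33.25 TPM. The difference was -0.05 ± 0.08 in log2 units (limma, adjusted p = 0.666, error as SE). With trimmed-mean scaling it passed as lower, at -0.22 ± 0.07 (SE; adjusted p by limma = 0.0400, from 0.0400 to 0.966 over the alternatives). KDM4B (ENSCAFG00000018925) had between 10.25 and 12.81 TPM in the shA-labelled libraries and between 10.15 and 12.76 TPM in scramble, and KDM4C (ENSCAFG00000001434) had between 7.44 and 9.06 TPM and between 7.09 and 9.43 TPM in the same order. Their ranges nearly coincided. The differences were 0.02 ± 0.14 for KDM4B and 0.06 ± 0.16 for KDM4C in log2 units (limma, adjusted p = 0.903 and 0.773, error as SE), and both turned negative under other scalings, KDM4B to -0.14 and KDM4C to -0.10 with trimmed-mean scaling. KDM4A took 65.4 ± 1.99% of the KDM4 transcripts in the shA-labelled libraries and 66.8 ± 2.75% in scramble (SD, n = 3 each; two-sided exact permutation test, p = 0.5). For this subfamily the makeup differed by less than the spread between replicates.

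**Figure D3:**
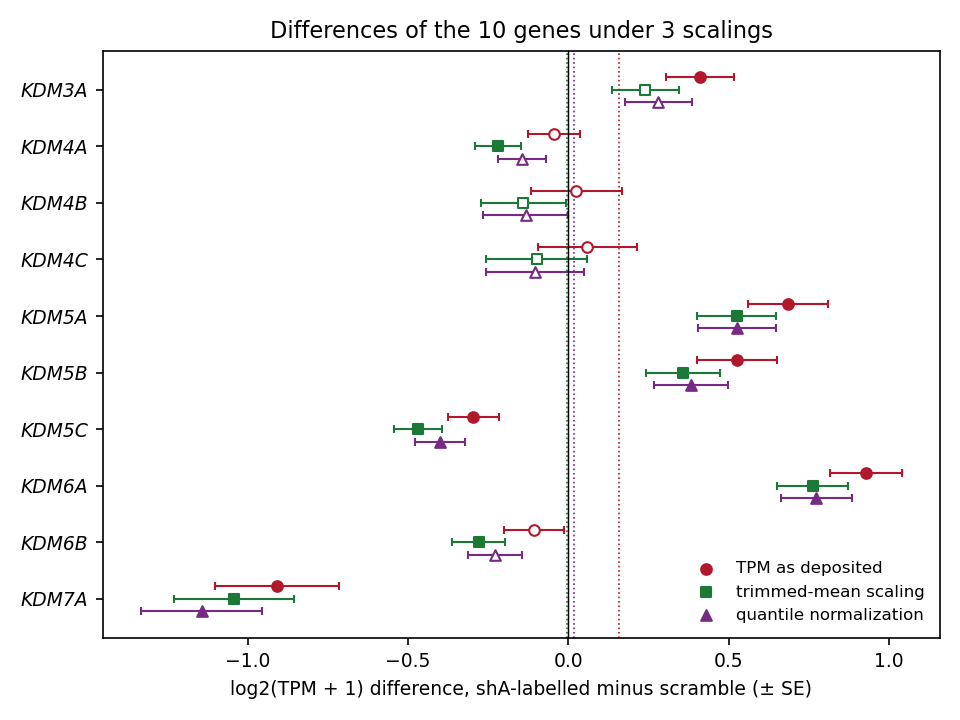
Differences on the log2(TPM + 1) scale, shA-labelled libraries minus scramble, with their SE, for each gene under TPM as deposited (circles), trimmed-mean scaling (squares) and quantile normalization (triangles). Filled symbols passed a limma adjusted p under 0.05, and dotted lines mark the median of all tested genes under each scaling. KDM5A, KDM5B and KDM6A stay above 0 and KDM5C and KDM7A below it under all 3, while KDM4B and KDM4C change sign and KDM3A passes on TPM as deposited only.

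The order of levels changed in its lower part. By mean TPM the first 5 were KDM4A, KDM5C, KDM6B, KDM3A and KDM5B in both shRNA groups. In scramble KDM4A and KDM5C, at 39.4 and 37.4 TPM, overlapped, and so did each pair of neighbours from KDM5B through KDM4B, KDM6A and KDM4C to KDM5A. KDM7A was last, clear of KDM5A. KDM6A was the 7th in scramble and the 6th in the shA-labelled libraries, where it overlapped KDM5B. KDM5A was the 9th in scramble and the 7th in the shA-labelled libraries, where it overlapped KDM4B, the 8th. KDM5C and KDM6B also overlapped in the shA-labelled libraries. Between replicates the coefficient of variation was between 2.73% and 21.2% in the shA-labelled libraries and between 2.91% and 15.8% in scramble. KDM7A was the most variable in the shA-labelled libraries and KDM4C in scramble. None of the 10 genes was listed at 0 in any library.

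The scramble libraries did not always match the untreated JuB2 library. For 5 of the 10 genes the untreated value lay within the scramble range, for 3 (KDM5A, KDM5C and KDM6B) above it and for 2 (KDM4A and KDM5B) below it. Over all genes tested, 64.2% lay outside the scramble range. The widest gap was that of KDM6B, at 32.56, 31.06 and 30.18 TPM in scramble and 41.97 TPM in untreated JuB2. For the 6 genes that passed between the shRNA groups, the shA-labelled libraries lay outside the range of all 4 control libraries, untreated JuB2 included, as they did for 52.3% of all genes tested.

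Between the untreated JuB2 library and the library labelled EC, KDM6B differed most. KDM6B held 41.97 TPM in untreated JuB2 and 7.07 TPM in EC, 5.94 times as much, or 2.41 on the log2(TPM + 1) scale. It was the 1 gene at least 4-fold apart on that scale among the 6 of the 10 genes with at least 10 TPM in the higher library, where 14.4% of 8805 genes were, 7.39% as higher in untreated JuB2. The scramble libraries held 4.61, 4.39 and 4.27 times the TPM of EC, or 2.06, 1.99 and 1.95 more on the log2(TPM + 1) scale, where the pseudocount puts 2 of the 3 just under 4-fold. KDM6A held 9 TPM in untreated JuB2 and 3.18 TPM in EC, and KDM7A 5.26 TPM in untreated JuB2 and 1.79 TPM in EC. The log2 differences were 1.26 for KDM6A and 1.17 for KDM7A. KDM5C held 43.51 TPM in untreated JuB2 and 25.37 TPM in EC, a difference of 0.76. KDM4A and KDM5B were lower in untreated JuB2, at 33.25 and 11.7 TPM, than in EC, at 47.39 and 17.78 TPM. KDM3A, KDM4B, KDM4C and KDM5A differed by at most 0.24 in size on the log2 scale. With trimmed-mean scaling all 10 differences were lower, KDM6B at 2.08, KDM6A at 0.96, KDM5C at 0.39 and KDM3A at -0.60, and KDM4B, KDM4C and KDM5A turned to -0.30, -0.23 and -0.12. With 1 library on each side there is no replicate check and no test.

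**Figure D4:**
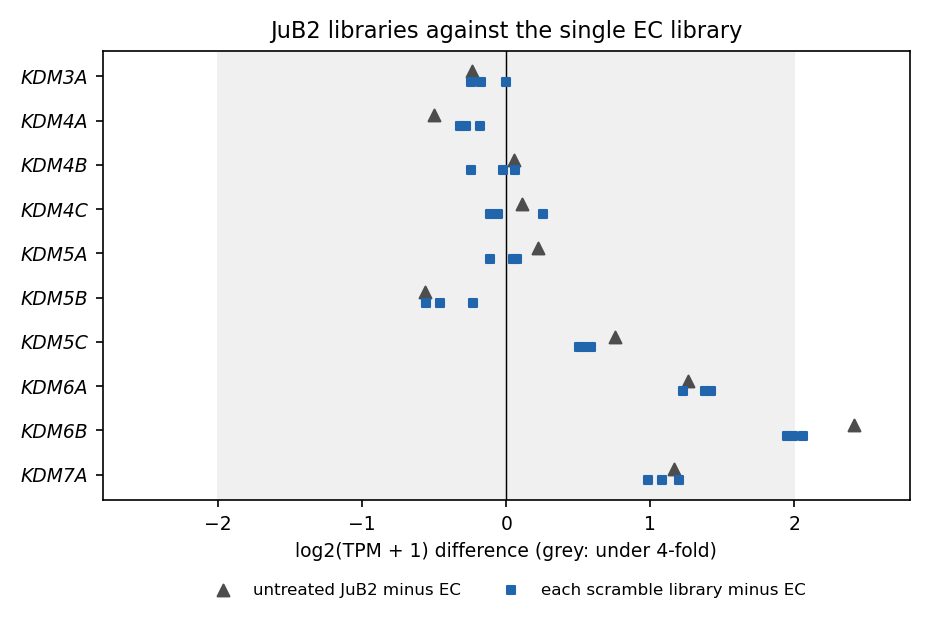
Differences on the log2(TPM + 1) scale of the untreated JuB2 library (triangles) and of each of the 3 scramble libraries (squares) from the single EC library, with the band under 4-fold in grey. KDM6B lies at 2.41 for untreated JuB2 and between 1.95 and 2.06 for scramble, KDM6A and KDM7A lie between 0.98 and 1.42, and KDM3A, KDM4B, KDM4C and KDM5A lie between -0.24 and 0.25.

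The EC library lay outside the range of all 7 JuB2 libraries for 4 of the 10 genes, above it for KDM4A and below it for KDM5C, KDM6A and KDM6B, as it did for 69.0% of all genes tested. KDM7A in EC, at 1.79 TPM, lay among the shA-labelled libraries. The 10 genes summed to 197.73, 193.32 and 186.85 TPM in the shA-labelled libraries, to 184.02, 179.95 and 173.37 TPM in scramble, to 189.68 TPM in untreated JuB2 and to 147.93 TPM in EC. The summed level was 7.55% higher in the shA-labelled libraries than in scramble on TPM as deposited, and the sign turned to -5.20% with trimmed-mean scaling and -2.13% with quantile normalization.

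Genes that write or erase histone methylation beside these enzymes were read from the same limma fit. Each count below is to be read against 33.3% of all genes higher and 17.6% lower on TPM as deposited, and, for counts under trimmed-mean scaling, against 22.9% and 25.3%. Of the 14 H3K4 methyltransferase genes and subunits with a row, 12 rose and 2 fell in the shA-labelled libraries, with a median difference of 0.64 where the median of all genes was 0.16. With trimmed-mean scaling 11 rose and 2 fell. HCFC1, a subunit on this list, averaged 67.7 ± 6.35 TPM in the shA-labelled libraries and 29.9 ± 1.04 TPM in scramble (SD, n = 3 each). The rise of HCFC1 was 1.15 ± 0.09 in log2 units (limma, adjusted p = 8.19e-05, error as SE). KMT2D, which shares its complex with KDM6A, rose by 1.03 and the leukaemia gene KMT2A by 0.60. DPY30, a core subunit, rose by 0.74. The core subunits WDR5 and ASH2L, named after their values were seen, were the genes that fell. ASH2L did not pass when any of 5 of the 6 libraries was left out, nor with the replicate number as a block (limma, adjusted p = 0.0745) or with no filter on low values (limma, adjusted p = 0.0724), which leaves 1 lower gene. Of 8 H3K9 methyltransferase genes and partners, 4 rose, none fell and 4 missed the threshold, with 3 higher and 1 lower under trimmed-mean scaling. WIZ, a partner of EHMT1 and EHMT2, averaged 87.2 ± 2.78 TPM in the shA-labelled libraries and 43.4 ± 3.62 TPM in scramble (SD, n = 3 each). SUV39H1, a writer of H3K9 methylation, and ATF7IP and SETDB1, which work together, rose by 0.79, 0.79 and 0.38 on the log2 scale, SETDB1 not with trimmed-mean scaling.

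Of 6 H3K36 methyltransferases 2 rose, 1 fell and 3 missed the threshold, with 2 higher and 2 lower under trimmed-mean scaling. SETD2, which trimethylates H3K36, averaged 31.9 ± 2.26 TPM in the shA-labelled libraries and 11.8 ± 0.617 TPM in scramble (SD, n = 3 each), a rise of 1.36. ASH1L rose by 0.59 and SETMAR fell by 0.48, SETMAR not when any of 5 of the 6 libraries was left out or with no filter on low values. SETMAR in untreated JuB2, at 9.88 TPM, lay among the shA-labelled libraries. EZH2, the H3K27 methyltransferase of Polycomb, averaged 66.5 ± 1.20 TPM in the shA-labelled libraries and 41.1 ± 6.62 TPM in scramble (SD, n = 3 each) and rose by 0.69, while EZH1 did not pass. Of the 10 flavin-dependent demethylases and CoREST partners 0 rose and 2 fell, GSE1 by 1.38 and ZMYM2 by 0.60, and 8 missed the threshold, with 0 higher and 4 lower under trimmed-mean scaling. KDM1A, the main flavin-dependent demethylase, is named after its value was seen and averaged 59.6 TPM in the shA-labelled libraries and 59.3 TPM in scramble.

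**Figure D5:**
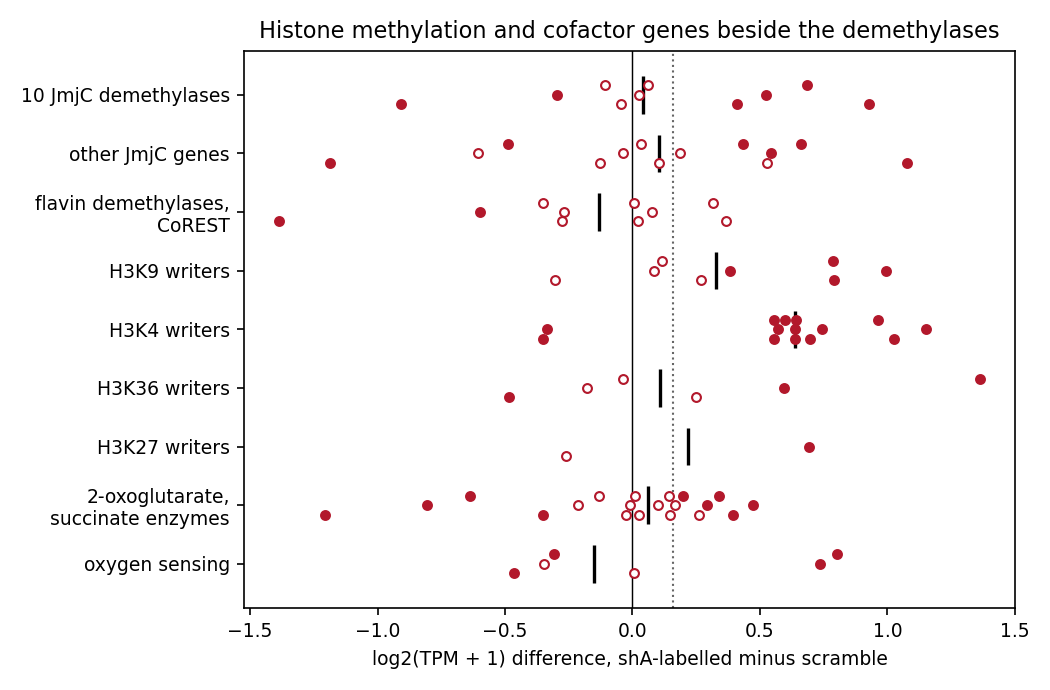
Difference on the log2(TPM + 1) scale, shA-labelled libraries minus scramble, of each tested gene of the 10 demethylases and of 8 related lists, filled where the limma adjusted p was under 0.05. Short bars are list medians and the dotted line is the median of all genes tested, at 0.16. All H3K4 writers but WDR5 and ASH2L lie above 0, and the 10 demethylases lie on both sides.

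Of 13 other tested genes with a JmjC domain 4 rose, 2 fell and 7 missed the threshold, with 2 higher and 2 lower under trimmed-mean scaling. JMJD6, a lysyl hydroxylase of splicing factors, averaged 74.4 ± 5.48 TPM in the shA-labelled libraries and 34.7 ± 2.71 TPM in scramble (SD, n = 3 each), a rise of 1.08. PHF2, a demethylase close to KDM7A in sequence, rose by 0.66, where KDM7A fell. HSPBAP1 and JMJD8 fell by 0.49 and 1.19. JMJD8 had 6.84, 4.56 and 8.79 TPM in the shA-labelled libraries and 23.5, 14.22 and 12.53 TPM in scramble, but its 7.72 TPM in untreated JuB2 lay within the shA-labelled range. Among 20 enzymes of 2-oxoglutarate, succinate and fumarate, the cofactor and inhibitors of JmjC enzymes, 5 rose, 4 fell and 11 missed the threshold, but with trimmed-mean scaling 1 was higher and 6 lower. The higher genes of this list numbered 3 without scramble library 3 or without shA-labelled library 1 or 2. IDH1, which makes 2-oxoglutarate in the cytosol, averaged 83.3 ± 2.33 TPM in the shA-labelled libraries and 146 ± 4.999 TPM in scramble (SD, n = 3 each), with 94.77 TPM in untreated JuB2. IDH3G, a subunit of the mitochondrial enzyme, fell by 1.21 and its partner IDH3A rose by 0.39. Of 6 genes of oxygen sensing, EGLN2, a prolyl hydroxylase, and EPAS1, a HIF subunit, rose by 0.73 and 0.80, EPAS1 not with quantile normalization or without scramble library 3 or shA-labelled library 2. EPAS1 was a low gene, at 2.41, 2.68 and 2.4 TPM in the shA-labelled libraries and 1.02, 1.33 and 0.71 TPM in scramble. It had 0.14 TPM in untreated JuB2 and 93.33 TPM in EC. With a mean of at least 5 TPM, 1 gene of this list was higher. EGLN1 and ARNT fell by 0.46 and 0.31, ARNT not when any of 4 of the 6 libraries was left out, and 2 genes missed the threshold, with 2 higher and 4 lower under trimmed-mean scaling.

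Across the 8 libraries, the genes with a pattern most like that of KDM6A were CBLL1, KIDINS220 and LARP4, with Pearson r on log2(TPM + 1) of 0.997, 0.997 and 0.996. For KDM7A they were TBC1D32, RMDN1 and NID2, with r of 0.995, 0.990 and 0.988. These libraries fall into groups of 3 with shared treatment, and r exceeded 0.9 for 1384 of 8702 genes with KDM6A and for 293 of 8703 genes with KDM7A. CBLL1 stood at 70.9, 80.89 and 70.62 TPM in the shA-labelled libraries, at 35.78, 36.53 and 35.94 TPM in scramble, at 34.1 TPM in untreated JuB2 and at 12.36 TPM in EC, the same order of groups as KDM6A apart from the place of untreated JuB2. TBC1D32 stood at 3.51, 2.36 and 3.62 TPM in the shA-labelled libraries, at 7.26, 6.92 and 6.81 TPM in scramble, at 7.19 TPM in untreated JuB2 and at 2.64 TPM in EC.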

How the data were processed

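Gene expression in 8 libraries was read from 1 table of TPM, computed by the authors. STAR, RSEM and CanFam3.1 appear, their roles not given, per the submitters' processing notes. Each column is named as an RSEM gene result of 1 library, per the file headers. How strand and reads shared by paralogs were handled is not given in the sources used here, so close paralogs and overlapping loci (8 of the 10 genes overlap another locus in the RefSeq table of UU_Cfam_GSD_1.0, 0 of them a protein-coding gene) are uncertain. TPM keeps no depth, so no counting interval was computed.

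The 3 shA-labelled libraries were set against the 3 scramble libraries on log2(TPM + 1) with limma 3.58.1 (R 4.3.3, intensity trend). The 11485 genes that reached 1 TPM in 3 or more of these 6 libraries were tested, with Benjamini-Hochberg adjustment over all of them and a threshold of 0.05. Trimmed-mean scaling used an unweighted mean of log ratios (30% of log ratios and 5% of mean levels trimmed at each end), chosen over a weighted one after values had been seen. Other alternatives were quantile normalization, TPM without the 13 mitochondrially encoded genes, other filters and pseudocounts (0.1 and 5), no trend, a fit of all 8 libraries, the replicate number as a block and leaving out each library. The test was tried on simulated data in which far fewer genes differed than passed here, so that trial is no support for the calls. Sums and shares were compared by exact permutation tests, and the shares, these tests and their alternatives were added after seeing the data. Single libraries were called apart at 4-fold.

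All 10 members, KDM2B, up to 4 called genes with the smallest adjusted p of each of 8 lists, and the 3 genes most like the members with the largest rise and fall (mean of at least 5 TPM) are named. A few others are stated to be named after their values were seen. One gene that this rule takes is not reported here. Members and lists were chosen with earlier results of these data known. Figures were drawn with matplotlib 3.10.9.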

Additional observations from a re-analysis of the deposited data

How the results depend on the processing

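The count of genes passing as higher among the 10 was 3 or 4 under every alternative. The count passing as lower was 2, except 4 with trimmed-mean scaling (KDM4A and KDM6B added), 1 with a mean of at least 5 TPM, where KDM7A was not tested, and between 1 and 2 when a library was left out, with KDM5C lost without scramble library 1. Over all genes, trimmed-mean scaling gave 2626 higher and 2906 lower and quantile normalization 2850 and 2683, against 3823 and 2027 on TPM as deposited. KDM4B, which did not pass in any setting, turned to -0.14 with trimmed-mean scaling, -0.13 with quantile normalization and -0.0726 without the mitochondrially encoded genes, and ranged from -0.0640 to 0.12 with a library left out. KDM4C turned to -0.099, -0.104 and -0.0333 under these 3 scalings and ranged from -0.0115 to 0.17 with a library left out. The KDM5 sum turned to -5.67%, -2.45% and -0.428% under the same scalings, and the sum of all 10 to -5.20% and -2.13% with trimmed-mean scaling and quantile normalization, and to 0.0884% without the mitochondrially encoded genes. The KDM4 sum ranged from -4.51% to 0.563% with a library left out. The cause of these changes was not tested. Same-numbered replicates did not deviate together (correlations of 0.03, 0.01 and -0.05 over 11485 genes). With the replicate number as a block, 4 of the 10 were higher and 2 lower, and 3578 of all genes were higher and 1870 lower. TPM gives no depth, which limits what can be said of KDM7A and other low genes.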
